A study of Arabidopsis thaliana with 8 samples.

Results

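The cellulose synthase-like genes of the CSLG, CSLB and CSLE families were examined in Arabidopsis leaves. They are the 3 CSLG genes, the 6 CSLB genes and CSLE1, 10 of the 30361 features on the array, found by locus. The families were chosen by their levels in DGTT2 and WT on these same arrays, after CSLG3 had been seen to differ. The genotype values of the 10 genes are therefore given as a description. Where a count of genes called in the fit over all features is printed for them, it describes the values that chose them and is no independent test.

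Leaf RNA was compared between the DGTT2 line and the wild type (WT), with 4 samples of each genotype and 1 array per sample. The DGTT2 plants were of transgenic line 57, which carries DGTT2, an acyltransferase gene of the green alga Chlamydomonas whose product makes triacylglycerol (storage oil). All plants were 6 weeks old, were kept in soil at 22 C and had days of 16 h light and nights of 8 h, and the RNA samples were biologically independent, per the labels. All transgenic plants were of 1 line, so DGTT2 and any other difference between that line and WT cannot be told apart. The sources used here name neither the promoter of the transgene nor the strain of the WT plants. Every feature carries an Arabidopsis locus identifier, so the algal transcript was not measured and could not serve as a check of the labels.

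The leaf label was checked against marker genes. Of the 5 mesophyll markers, RBCS1A, LHCB2.1, CA1 and RCA lay between 14.78 and 15.99 on the log2 scale on every array, but LHCB1.1 was dim, at 6.14 to 7.66. Root markers were not uniformly absent. The root hair genes COBL9 and EXPA7 lay at 4.82 to 5.22 and 5.74 to 6.38, in the range of pseudogene features, while IRT1, an iron transporter, was at 7.25 to 8.39, PYK10, a beta-glucosidase, at 7.88 to 11.52 and SCR, a regulator of root endodermis, at 12.81 to 13.19. The arrays were alike over all features, with pairwise correlations of 0.988 to 0.995 and medians of 10.19 to 10.28. Each of the 2 slides carried 2 arrays of each genotype. In bulk leaf RNA, fewer cells of a type and less RNA per cell cannot be told apart.

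Plant cell walls are built from cellulose, spun out by complexes of CESA proteins at the plasma membrane, and from matrix polysaccharides made largely in the Golgi. Cellulose synthase-like (CSL) proteins are glycosyltransferases of the same superfamily. CSLA proteins make the backbone of glucomannan, CSLC proteins that of xyloglucan, and CSLD proteins act in walls of tip-growing cells such as root hairs and pollen tubes. The products of CSLB, CSLG and CSLE in Arabidopsis are much less settled. In legumes and spinach, relatives of the CSLG genes attach glucuronic acid to triterpenes during saponin synthesis, and CSLH of grasses, a family close to CSLB, makes mixed-linkage glucan.

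Among the 10 genes, the genotypes lay apart for 3: CSLG3, CSLB03 and CSLB04 had all 4 DGTT2 arrays above all 4 WT arrays. CSLG2 was far above WT on only 2 DGTT2 arrays, and CSLB02 was highest on the same arrays. CSLG1 leaned higher in DGTT2 with overlap, while CSLE1, CSLB01, CSLB05 and CSLB06 had nearly the same mean in both genotypes. The mean was higher in DGTT2 for 7 of the 10 genes, beside 49.7% of all features. The median log2 difference (DGTT2 minus WT) over the 10 genes was 0.36, beside -0.001 over all features. Without overlap and higher in DGTT2 were 3 of the 10, beside 2.31% of all features. In the fit over all features (limma, adjusted p under 0.05), 1 of the 10 was called, CSLG3, beside 0.0725% of all features. Since CSLG3 brought these genes to attention, nothing is read from these counts. With any 1 of the 8 arrays left out, 0 of the 10 were called.

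**Figure D1:**
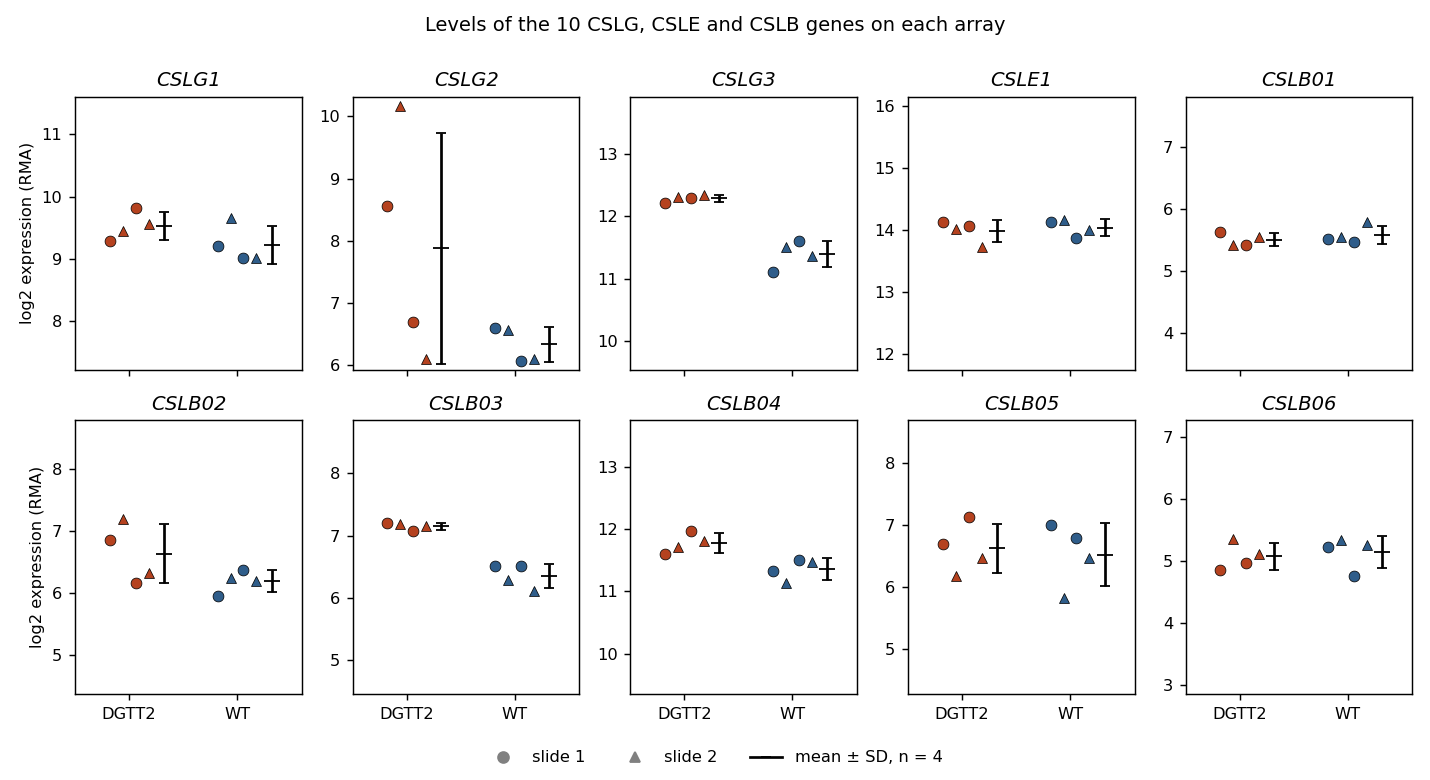
Log2 expression of each of the 10 genes on each array, with DGTT2 left of WT, circles for slide 1, triangles for slide 2, and black bars for the mean ± SD (n = 4). Every panel spans the same number of log2 units. CSLG3, CSLB03 and CSLB04 show no overlap between the genotypes, and CSLG2 shows 2 DGTT2 arrays far above the other 6.

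CSLG3 (AT4G23990) was at 12.22, 12.31, 12.29 and 12.34 on DGTT2 arrays 1 to 4, against 11.11, 11.50, 11.61 and 11.36 on WT arrays 1 to 4. The DGTT2 values lay within a narrow band and the WT values were more scattered, with a clear gap between the groups. The means were 12.29 ± 0.05 in DGTT2 and 11.40 ± 0.22 in WT (SD, n = 4 each), a log2 difference of 0.89 (SE 0.12), or 1.86-fold. The difference was 0.89 on slide 1 and 0.89 on slide 2, and between 0.80 and 0.96 with any 1 array left out.

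CSLG2 (AT4G24000), the middle gene of the CSLG cluster, behaved differently. Its DGTT2 arrays read 8.55, 10.17, 6.68 and 6.10, against 6.60, 6.56, 6.06 and 6.10 in WT. DGTT2 replicates 1 and 2, which were on different slides, stood far above the rest, and the other DGTT2 arrays lay within or just above the WT range. The log2 difference of 1.55 (SE 0.76) thus rested on those arrays: it was 0.78 without DGTT2 replicate 2 and 2.14 without DGTT2 replicate 4. The WT mean of 6.33 was near 5.95, the median level of the 4414 pseudogene features, so a level above background was not established. No fold is given, and the log2 difference describes the array values without measuring the size of a change in RNA.

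CSLG1 (AT4G24010) was at 9.29, 9.45, 9.81 and 9.56 in DGTT2, against 9.21, 9.66, 9.01 and 9.01 in WT. The groups overlapped through WT replicate 2, the second highest of the 8 values. The means were 9.53 ± 0.22 and 9.22 ± 0.31 (SD, n = 4 each), a log2 difference of 0.30 (SE 0.17), with 0.44 on slide 1 and 0.17 on slide 2. WT replicate 2 was also the WT array with the highest mean over the 10 salicylate and pathogen genes, 0.55 above their 8-array average, while WT replicates 3 and 4 were at -0.89 and -0.60. The DGTT2 arrays did not follow that order: DGTT2 replicate 3, the highest for CSLG1, was at 0.03 for the salicylate genes. The part of these genes in the CSLG1 values was not tested.

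The 3 CSLG genes follow each other directly in the order CSLG3, CSLG2 and CSLG1. The loci on either side were not called (limma), and CSLG2 and CSLG1 were not called either, beside 0.0725% of all features called. ARF9, an auxin response factor next to CSLG3, averaged 13.01 ± 0.19 in DGTT2 and 12.98 ± 0.27 in WT (SD, n = 4 each; limma adjusted p = 0.976). AT4G24015, next to CSLG1, averaged 10.73 ± 0.12 and 10.87 ± 0.26 (adjusted p = 0.803). AT4G24015 overlaps the end of CSLG1 in the RefSeq table, and probe positions were not among the sources used here, so shared signal between this pair was not tested. The same holds for cross-hybridisation between the CSLG genes, which are close relatives.

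Of the CSLB genes, CSLB03 and CSLB04 separated the genotypes. CSLB03 (AT2G32530) was at 7.20, 7.18, 7.07 and 7.15 in DGTT2, against 6.51, 6.29, 6.50 and 6.11 in WT. As for CSLG3, the DGTT2 values were closely spaced (SD 0.06) and the WT values wider (SD 0.19), and the groups lay well apart. The log2 difference was 0.80 (SE 0.11), with 0.63 on slide 1 and 0.97 on slide 2, and ran from 0.72 to 0.85 with any 1 array left out. The WT mean of 6.35 was in the range of pseudogene features, whose quartiles were 5.38 and 6.89, so the same limit holds for its log2 difference as for CSLG2.

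CSLB04 (AT2G32540), the direct neighbour of CSLB03, was brighter. It was at 11.61, 11.72, 11.97 and 11.82 in DGTT2, against 11.32, 11.13, 11.51 and 11.48 in WT. The lowest DGTT2 value was only just above the highest WT value, so the separation was narrow. The means of 11.78 ± 0.15 and 11.36 ± 0.17 (SD, n = 4 each) differed by 0.42 (SE 0.12), or 1.34-fold, with 0.37 on slide 1 and 0.46 on slide 2.

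The second CSLB pair, CSLB01 and CSLB02, lies 6 loci away on the same chromosome. CSLB02 (AT2G32620) was at 6.85, 7.19, 6.15 and 6.33 in DGTT2, against 5.96, 6.24, 6.37 and 6.19 in WT. DGTT2 replicates 1 and 2 were its highest arrays, as for CSLG2, and the other DGTT2 arrays lay within the WT range. Its log2 difference was 0.44 (SE 0.22), and 0.25 without DGTT2 replicate 2. Its WT mean of 6.19 was also among the pseudogene levels, with the same limit. CSLB01 (AT2G32610), its direct neighbour, stayed between 5.42 and 5.63 in DGTT2 and between 5.47 and 5.80 in WT, below the pseudogene median on every array. It differed by -0.08 (SE 0.11).

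CSLB05 and CSLB06 form a separate group on chromosome 4, with 2 cytochrome P450 genes, CYP702A2 and CYP702A3, between them. CSLB05 (AT4G15290) was at 6.69, 6.18, 7.14 and 6.47 in DGTT2, against 6.99, 5.83, 6.79 and 6.47 in WT. Both genotypes covered almost the same range, and the difference was 0.10 (SE 0.27). The CSLB05 means of 6.62 in DGTT2 and 6.52 in WT were among the pseudogene levels, with the same limit as for CSLG2. CSLB06 (AT4G15320) was dim, between 4.86 and 5.36 in DGTT2 and between 4.76 and 5.34 in WT, with a difference of -0.07 (SE 0.16). With 1 array left out, CSLB05 ranged from -0.13 to 0.26, so it had no stable direction.

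None of the 6 CSLB genes was called in the fit over all features, and the other measured loci around them were not called either. The share called over all features was 0.0725%. In the chromosome 2 stretch from AT2G32520 to AT2G32630, 7 other loci were measured, 0 were called (limma), and their log2 differences ran from -0.13 to 0.17. Next to CSLB03 and CSLB04, AT2G32520 was at 0.08 (SE 0.09) and AT2G32550 at 0.17 (SE 0.26). Next to CSLB01 and CSLB02, AT2G32600 was at 0.02 (SE 0.11) and AT2G32630 at 0.09 (SE 0.09). Around CSLB05 and CSLB06, 4 other loci ran from -0.22 to 0.02 and 0 were called. They were the glucosyltransferase gene UGT71B5 at -0.22 (SE 0.27), CYP702A2 at 0.02 (SE 0.25), CYP702A3 at -0.10 (SE 0.16) and CYP705A1, whose product cleaves the triterpene arabidiol in roots, at -0.03 (SE 0.22).

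**Figure D2:**
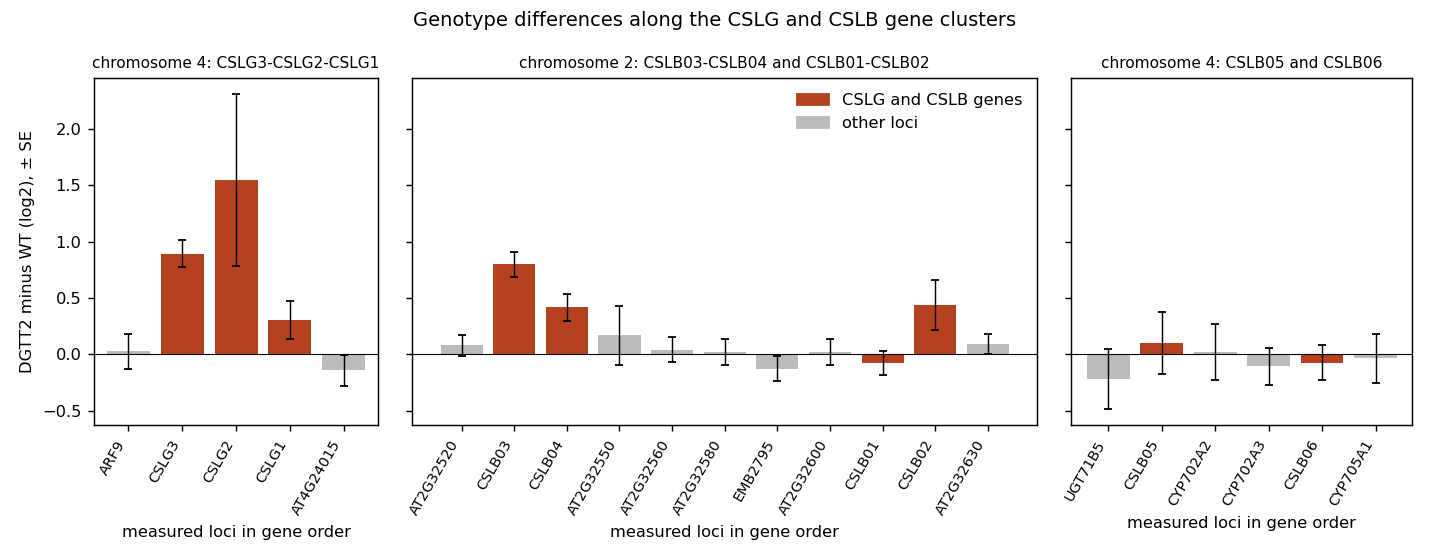
Log2 difference (DGTT2 minus WT) with its SE for every measured locus along the 3 gene clusters, drawn in gene order and not to scale. Coloured bars are CSLG and CSLB genes and grey bars other loci. The grey loci stay between -0.22 and 0.17, and CSLB01, CSLB05 and CSLB06 lie within that range. CSLG1 is at 0.30, while CSLG3, CSLG2, CSLB03, CSLB04 and CSLB02 reach 0.42 or more. The WT means of CSLG2, CSLB03 and CSLB02 are among the pseudogene levels.

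CSLE1 (AT1G55850), the single member of its family, was bright and steady. It was at 14.12, 14.01, 14.07 and 13.73 in DGTT2, against 14.13, 14.16, 13.87 and 13.99 in WT. DGTT2 replicate 4 was the lowest array, and the genotypes otherwise shared a range. The means of 13.98 ± 0.18 and 14.04 ± 0.13 (SD, n = 4 each) differed by -0.06 (SE 0.12). Without DGTT2 replicate 4 the difference was 0.03, so its sign rested on that array.

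Spread between arrays of one genotype does not use the genotype difference, but a limma call weighs that difference against the spread. The families were chosen after CSLG3 had been seen to differ, so the spread is not free of that choice. The pooled SD of CSLG2 within genotypes was 1.33, larger than that of 99.8% of all features. Its SD was 1.85 in DGTT2 and 0.29 in WT, so this rank rested on the same high DGTT2 arrays as its log2 difference. CSLB05 followed with 0.46 (larger than 92.6% of features) and CSLB02 with 0.36 (84.1%). CSLB02 too was wider in DGTT2 (SD 0.48) than in WT (SD 0.17). CSLG3 and CSLB03 were on the quiet side, at 0.16 and 0.14, larger than 34.0% and 27.8% of features. A low spread helps genotypes to lie apart, so these low ranks are no independent result. CSLE1, at 0.16, was like CSLG3.

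**Figure D3:**
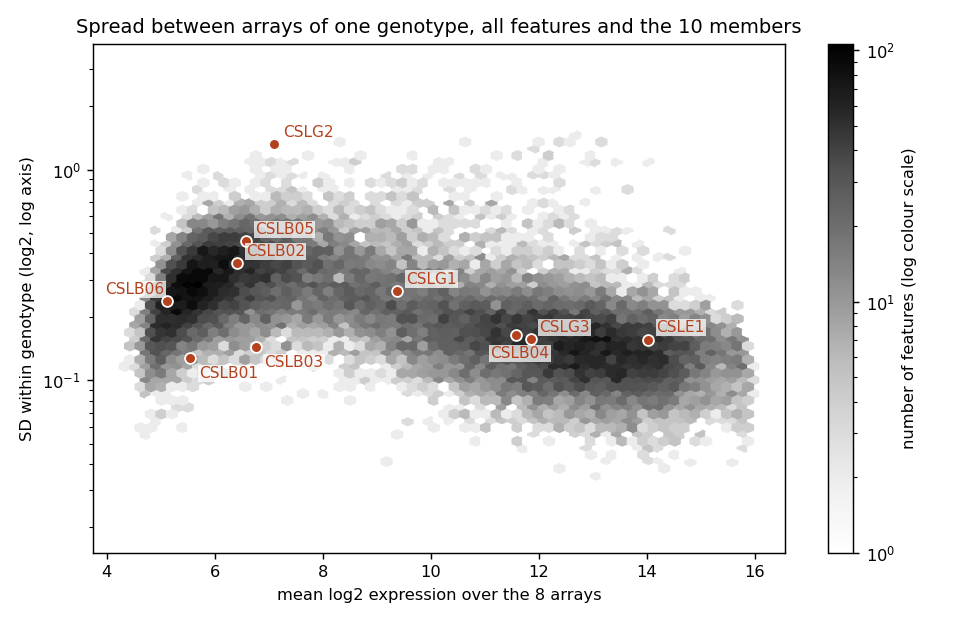
Pooled SD within genotype (log axis) against the mean log2 level over the 8 arrays, with all 30361 features as grey hexagons shaded by their number and the 10 genes as labelled points. CSLG2, at an SD of 1.33, sits above nearly all features of its level, and CSLB03, at 0.14, near the lower edge at its level.

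The 4 features whose profile over the 8 arrays was closest to that of each gene were sought by the root mean square (RMS) difference between profiles, each centred on its own mean. For CSLG2, with an RMS deviation of its own of 1.38, the closest was KTI1, a Kunitz trypsin inhibitor, at an RMS difference of 0.27. KTI1 was at 10.16, 11.10, 7.86 and 7.07 in DGTT2, against 7.97, 7.30, 7.46 and 7.44 in WT. It was high on DGTT2 replicates 1 and 2, the arrays on which CSLG2 was high. Next came AT4G23680 at 0.54, DXPS1, a relative of the first enzyme of plastid isoprenoid synthesis, at 0.55, and CYP82G1, a P450 that makes volatile homoterpenes, at 0.62. All 3 had their highest DGTT2 values in replicates 2 and 1. CYP82G1 was at 10.77 in DGTT2 replicate 1 but also at 10.85 in WT replicate 1, where CSLG2 was low.

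For CSLG3, with an RMS deviation of its own of 0.47, the closest were the pseudogene AT1G34610 at an RMS difference of 0.12, SCPL10 (scpl10 in the RefSeq table), a serine carboxypeptidase-like gene, at 0.12, TRM24 at 0.13 and the pseudogene AT4G07856 at 0.14. SCPL10 was at 10.63, 10.67, 10.74 and 10.64 in DGTT2, against 9.73, 9.79, 10.25 and 9.78 in WT. Like CSLG3, it was tightly grouped in DGTT2 and highest among WT arrays in replicate 3. Since they were chosen for their likeness, the genotype differences of these features are no independent result. Among the 10 genes, the closest pair was CSLB01 and CSLE1 at an RMS difference of 0.18, followed by CSLG3 and CSLB03 at 0.20. The genotype difference enters the likeness of CSLG3 and CSLB03, so it too is no independent result. CSLG2 was 1.22 from CSLG3 and 1.38 from CSLG1, its direct neighbours.

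Other gene groups also differed between arrays. The mean of 7 anthocyanin genes, centred on the 8 arrays, was 1.58, 0.46, 0.28 and 0.03 on DGTT2 arrays 1 to 4, against -0.61, -0.43, -0.70 and -0.61 in WT, so it too separated the genotypes. DGTT2 replicates 1 and 2 were its highest arrays, as for CSLG2 and CSLB02, but in the other order. Over all features 0.0725% were called and 10.5% had an unadjusted p under 0.05 (limma). Taken singly, 6 of the 7 anthocyanin genes were higher in DGTT2 without overlap, beside 2.31% of all features. The list was chosen with earlier results of these data known. In this list 0 of 7 were called over all features (limma; 6 at an unadjusted p under 0.05), with PAP1, a regulator of anthocyanin genes, at 0.89 (adjusted p = 0.102) and TT19, which carries anthocyanins to the vacuole, at 1.81 (adjusted p = 0.109). Their part in the CSL values was not tested.

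The touch and wound genes were highest on DGTT2 replicate 4 (0.88) and WT replicate 2 (0.75), where CSLG2 was at 6.10 and 6.56 and CSLB02 at 6.33 and 6.24. For all 7 the DGTT2 mean was the higher one (median log2 difference 0.57), and the genotypes overlapped in each. Their part in the CSL values was not tested. None of those 7 genes was called (limma; 1 at an unadjusted p under 0.05), with TCH3, a calmodulin-like gene, at 0.28 (adjusted p = 0.393) and ERF6, an ethylene response factor, at 0.57 (adjusted p = 0.586; 0.31 without WT replicate 4). Of the 10 salicylate and pathogen genes 0 were called (limma, with 1 at an unadjusted p under 0.05). SARD1, of salicylate synthesis, was at 1.27 (limma adjusted p = 0.429, and 0.65 without WT replicate 2). SARD1 was higher in DGTT2 without overlap, beside 2.31% of all features. ICS1, also of salicylate synthesis, was at 0.38 (limma adjusted p = 0.612, and 0.20 to 0.59 with 1 array left out). Of the 7 senescence and dark-response genes 0 were called (limma, with 1 at an unadjusted p under 0.05). Over all features 0.0725% were called and 10.5% had an unadjusted p under 0.05 (limma). Nothing is read from the counts in the touch, salicylate and senescence lists. SEN1 was at -0.43 (limma adjusted p = 0.457, and -0.26 without DGTT2 replicate 4) and SAG12 at -0.48 (limma adjusted p = 0.517). SEN1 was lower in DGTT2 without overlap, and the share of all features lower without overlap was not counted. SAG12 averaged 5.41 in DGTT2 and 5.88 in WT, below the pseudogene median of 5.95, so a level above background was not established.

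Markers of the cell types of a leaf were compared by the range of their mean log2 level. The 7 epidermis and trichome markers averaged 11.39 to 11.75 on DGTT2 arrays and 11.43 to 11.55 on WT arrays. The 6 guard cell markers averaged 11.28 to 11.40 and 11.23 to 11.36, the 7 vascular markers 13.01 to 13.22 and 12.97 to 13.16, and the 5 root markers 8.00 to 8.52 and 8.04 to 8.69, DGTT2 first in each. These ranges overlapped. The mean of the 5 mesophyll markers did not overlap, at 13.95 to 14.08 in DGTT2 and 13.76 to 13.93 in WT. Among the 5 mesophyll genes taken singly, only the dim LHCB1.1 was without overlap, with a log2 difference of 0.72 (limma adjusted p = 0.249). LHCB2.1 and RCA had lower means in DGTT2, by -0.06 and -0.08. The part of the mesophyll markers in the CSLG3, CSLB03 and CSLB04 values was not tested. Of the 30 markers 0 were called (limma), beside 0.0725% of all features. At an unadjusted p under 0.05 there were 3 of the 30, beside 10.5% of all features, so nothing is read from these counts. The trichome regulator GL3 was at 0.69 (limma adjusted p = 0.277), with a WT mean of 6.13, among the pseudogene levels. The guard cell gene MYB60 was at 0.57 (limma adjusted p = 0.196). GL3 and MYB60 were also higher in DGTT2 without overlap, beside 2.31% of all features. In the guard cell list 1 other marker was lower without overlap. The 2.31% covers only features higher in DGTT2, and the share of all features lower without overlap was not counted. The carbonic anhydrase CA1 was at 0.14, the epidermal regulator ATML1 at -0.18 and the guard cell kinase HT1 at -0.26. The xylem regulator VND7 was at 0.16 and the sugar transporter SWEET11 at -0.14.

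**Figure D4:**
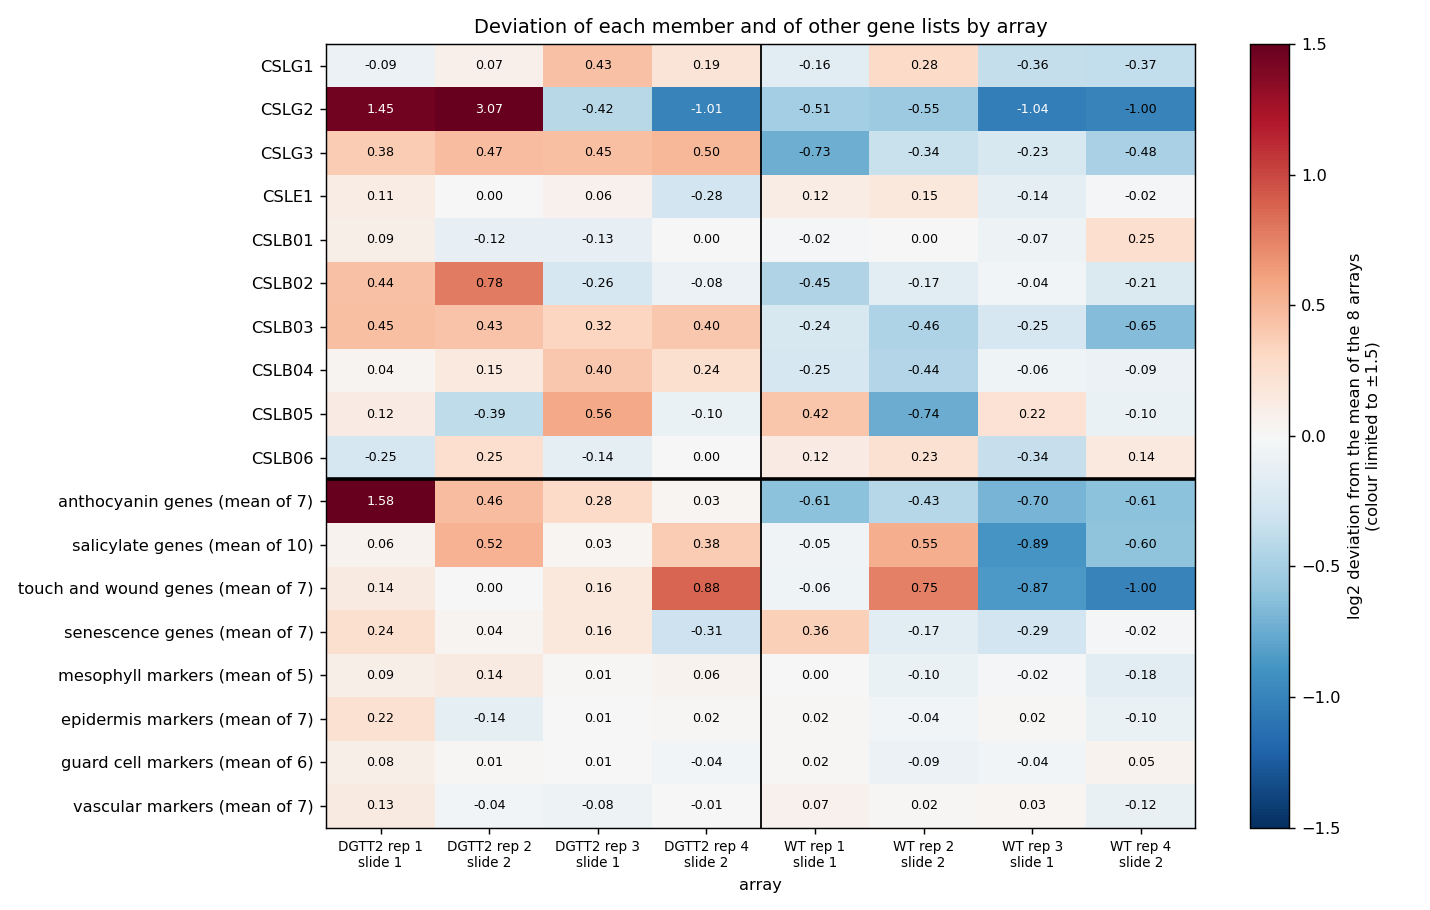
Deviation of each of the 10 genes (above the line) and of the mean of other gene lists (below it) from the 8-array mean on the log2 scale, one column per array with its slide, DGTT2 columns left of WT. CSLG3, CSLB03 and CSLB04 are positive on every DGTT2 array and negative on every WT array. The same holds for the means of the anthocyanin genes and the mesophyll markers. CSLG2 is at 1.45 and 3.07 on DGTT2 replicates 1 and 2, and the anthocyanin genes reach 1.58 on DGTT2 replicate 1.

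The rest of the cellulose synthase superfamily and its partners was examined for the same comparison in 6 lists with 44 genes. In these lists 0 of 44 genes were called (limma, adjusted p under 0.05), beside 0.0725% of all features. At an unadjusted p under 0.05 there were 3 of 44, beside 10.5% of all features. The genotypes overlapped in each of the 44, while 2.31% of all features were higher in DGTT2 without overlap. With shares this small over all features, nothing is read from counts of 0 in 44 genes. The median log2 difference was 0.05, and the intervals of 41 lay within 2-fold.

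The CESA genes, which make cellulose itself, showed small differences. All 10 had a 95% interval within 2-fold, and their differences ran from -0.14 to 0.21. CESA9, known from the seed coat, averaged 9.75 ± 0.11 in DGTT2 and 9.55 ± 0.18 in WT (SD, n = 4 each; adjusted p = 0.595). CESA1, of the complex that makes primary walls, was at -0.09 (95% interval -0.31 to 0.12). The 9 genes that assist cellulose synthesis ran from -0.07 to 0.14, led by CC1 at 0.14 (SE 0.11) and CC2 at 0.12 (SE 0.15), which tie the complex to microtubules.

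Among the other CSL families, single genes stood out without passing. CSLA01 averaged 10.24 ± 0.65 in DGTT2 and 8.60 ± 1.01 in WT (SD, n = 4 each), a log2 difference of 1.64 (SE 0.49, adjusted p = 0.262). Its values overlapped between the genotypes, from 9.46 to 10.91 in DGTT2 and from 7.37 to 9.76 in WT. In each of the 9 CSLA genes the DGTT2 mean was the higher one. Their median difference was 0.15, and CSLA14 was at 0.23 (SE 0.12, adjusted p = 0.56). CSLC12, of the xyloglucan backbone family, was at 0.58 (SE 0.21, adjusted p = 0.374) and CSLC5 at -0.14 (SE 0.11). CSLD4, known from pollen tubes, was at -0.71 (SE 0.28, adjusted p = 0.413), with a DGTT2 mean of 6.18, among the pseudogene levels, and CSLD2 at 0.08 (SE 0.11). The 5 genes of xyloglucan side chains ran from -0.11 (XXT1) to 0.13 (XXT5).

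**Figure D5:**
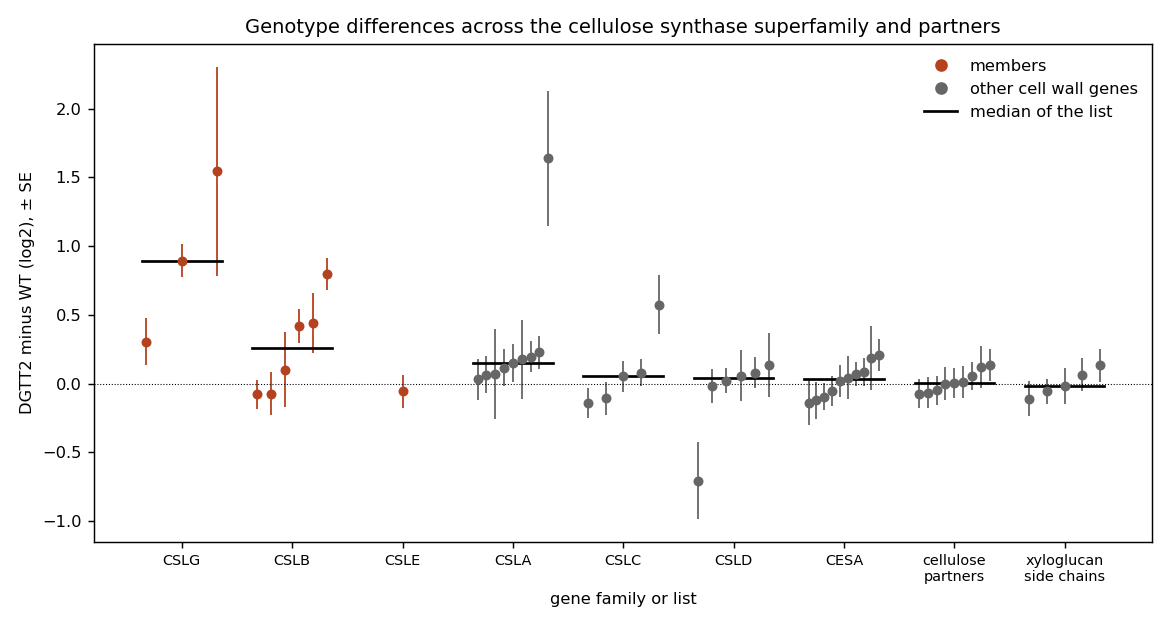
Log2 difference (DGTT2 minus WT) with its SE for the 10 CSLG, CSLB and CSLE genes (coloured) and the 44 other cell wall genes (grey), grouped by family, with a black line at each list's median. CSLG2 at 1.55, with its WT mean at pseudogene levels, and CSLA01 at 1.64 are the highest points and have the longest error bars, and the CESA genes and cellulose partners lie within 0.21 of zero.

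Slide gave a second comparison, which the choice of the 10 genes did not use. Over all features 0% were called between slide 2 and slide 1 (limma with genotype as a term, adjusted p under 0.05; 9.31% at an unadjusted p under 0.05). Of the 10 genes 0 were called, and 2 had an unadjusted p under 0.05. CSLB05 was lower on slide 2, at 6.18 and 6.47 in DGTT2 and 5.83 and 6.47 in WT, against 6.69 and 7.14 in DGTT2 and 6.99 and 6.79 in WT on slide 1. The log2 difference of CSLB05 was -0.66 (95% interval -1.05 to -0.27, limma adjusted p = 0.277). CSLB06 differed by 0.31 (95% interval 0.02 to 0.59, limma adjusted p = 0.51). The means of both genes were at or below the pseudogene levels, with the same limit as for CSLG2. The differences of CSLG3 and CSLB03 between slides were 0.07 (95% interval -0.21 to 0.35) and -0.14 (95% interval -0.39 to 0.11).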

How the data were processed

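Leaf RNA was hybridised to 8 one-colour arrays, and the table the authors deposited holds log2 values for 30361 features; the scale was read from the values. RMA and Partek are named, per the submitters' processing notes, without settings. No source used here gives probes or annotation build. RMA makes array distributions alike, which would hide a change shared by most genes. Names, biotypes and gene order came from the RefSeq table of assembly TAIR10.1, which matched 29976 features; it gives CSLB05 as ATCSLB05. No coordinates are given.

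The deposited values entered limma 3.58.1 under R 4.3.3 (lmFit and eBayes, two-sided, Benjamini-Hochberg over all features), with genotype alone, and with genotype and slide for the slide comparison. Fold changes are 2 to the power of log2 differences. The fits were tested on simulated data. No detection calls were used; the number of arrays limits the precision. Array position and genotype cannot be told apart: WT was at positions 1 and 2 of each slide, DGTT2 at 3 and 4.

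The members and lists were chosen with earlier results of these data known. Named were all members, the called genes and the 2 of smallest p of each other list, the nearest loci beside each cluster, and the 4 closest profiles for CSLG3 and for the most variable other member; RBCS1A, LHCB2.1, RCA, IRT1, SCR and EXPA7 were named after their values were seen. The alternatives were other normalizations, a filter on dim features, slide or replicate blocks, eBayes settings, another threshold and each array left out.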

Additional observations from a re-analysis of the deposited data

Results flagged for a closer look

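In none of the 20 sets of 4 arrays (10 genes, 2 genotypes) did a CSLG, CSLB or CSLE value stand apart by Dixon's criterion at 95%. Among all 116 sets tested, which include the other named genes, 6 held a value far from the other 3, where chance gives about 5.8. AT1G34610 was at 5.85 and scpl10 at 10.25 in WT replicate 3, SEN1 at 13.36 and XXT5 at 13.74 in DGTT2 replicate 4, UGT71B5 at 10.06 in DGTT2 replicate 2 and VND7 at 9.18 in DGTT2 replicate 1.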

How the results depend on the processing

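The count of features called between DGTT2 and WT, 22 with the main fit, was 13 with centring on array medians, 69 with slide as a fixed block, 46 with eBayes trend and robust and 118 at an adjusted p under 0.1; leaving out 1 array gave 5 (without WT replicate 4) to 39 (without WT replicate 2). Of the 10 members, 1 in the main fit, 0 were called after a second quantile normalization or centring, and 0 without any 1 array; 2 were called (CSLG3 and CSLB03) with slide as a fixed block, without features below the lower quartile, and at an adjusted p under 0.1. The filter, on the mean over all 8 arrays (6.49), kept 7 of the 10. CSLB03 (7.15 in DGTT2, 6.35 in WT) and CSLG2 (7.88 and 6.33) passed it only through DGTT2, so the CSLB03 call under it supports nothing. The replicate numbers did not pair the samples: deviations of arrays with the same number correlated at 0.07, 0.20, -0.03 and -0.02. With the replicate block 3 features and 0 members were called. The related cell wall lists and the slide comparison had 0 calls in all settings run for them. Among other named genes, the sign turned: CYP705A1 to 0.017 after a second quantile normalization; ARF9, AT2G32600 and CYP702A2 to -0.011, -0.017 and -0.018 with centring. With 1 array left out, ARF9 ranged from -0.10 to 0.10, AT2G32550 from -0.040 to 0.33, AT2G32600 from -0.043 to 0.10, CYP702A2 from -0.22 to 0.21, CYP702A3 from -0.21 to 0.027, CYP705A1 from -0.26 to 0.12 and CYP82G1, at 0.53 with all arrays, from -0.24 (without DGTT2 replicate 2) to 1.06. The causes were not tested.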
